A study of Mus musculus with 298 samples.

Results

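Ret and the 4 classical co-receptors of the GDNF family, Gfra1, Gfra2, Gfra3 and Gfra4, were followed cell by cell in the thoracic sympathetic ganglion of the mouse. The 5 genes were taken by row name from a table of 16892 genes. RNA had been counted in 298 cells, and the labels place 213 of them in 8 identities and leave 85 unclassified. The identities are Ach1 (8 cells) and Ach2 (8 cells), both cholinergic, Glutamatergic (4 cells), and Noradrenergic1 (10 cells), Noradrenergic2 (39 cells), Noradrenergic4 (18 cells), Noradrenergic5 (23 cells) and Noradrenergic3, which holds the rest of the named cells. All mice came from the same cross of a R26R-Tomato reporter with a Wnt1-Cre driver, which is active in the neural crest and marks its descendants, so no group differed by genotype or treatment. The labels do not name animals. Cells that shared sex and age were therefore treated as a collection, and the 10 collections were P11, P16, P20, P30, P31, P33 and P34 labelled female and P29, P30 and P38 labelled male, where P is the postnatal day.

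RET is a receptor tyrosine kinase that does not bind its ligands alone. Each ligand of the family is held by a preferred co-receptor that is anchored to the membrane by a lipid, and the pair then activates RET: GDNF with GFRA1, neurturin with GFRA2, artemin with GFRA3 and persephin with GFRA4. Sympathetic neurons use this system as they migrate, extend axons along blood vessels and reach their targets, and neurturin and GFRA2 are known for their part in the innervation of glands by cholinergic autonomic neurons.

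Levels are counts per 10000 counts of a cell or of the pooled cells of an identity in a collection, here called a library, and are given as mean ± SD over collections. A cell held between 7225 and 81589 counts in all, 33099 at the median, and 16 of the 44 libraries of named cells held 1 cell. Identities were compared with edgeR on summed counts per library, with the collection as a block, 11555 genes tested together and an adjusted p of 0.05 as the threshold. How the identities were made is not given in the sources used here. If they were drawn from the same transcriptomes, p-values between them are not independent evidence. In any case these p-values measure only the spread between libraries that is left after the block. In libraries of 1 cell that spread includes variation between cells. Labelled types bore their markers: the summed level of 4 noradrenergic genes had a median of 88.9 in the noradrenergic and 12.1 in the cholinergic cells, and 4 cholinergic genes had a median of 59 in the cholinergic cells and 0 in the noradrenergic cells. Of the Ach1 and Glutamatergic cells, 4 held 10 or more counts of both Th and Slc6a2, genes that mark noradrenergic cells. The 5 cells of the P16 collection held 28 counts of 4 Y-linked genes and 0 of Xist, against their label.

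Ret, the shared signalling receptor, had a count in 195 of the 213 named cells. By mean level, the cholinergic identities and Noradrenergic4 stood first and Noradrenergic3 and Noradrenergic1 last. In Ach1 it stood at 11.5 (P16 female), 3.75 (P29 male), 14.2 (P30 female), 13.6 (P30 male), 4.32 (P31 female), 3.63 (P33 female) and 1.77 (P38 male), with a mean of 7.56 ± 5.34 (SD, n = 7). In Ach2 it stood at 2.51 (P16 female), 5.64 (P29 male), 3.12 (P30 female) and 6.17 (P38 male), with a mean of 4.36 ± 1.81 (SD, n = 4). The Ach1 libraries thus fell into 3 high and 4 low ones, the low ones overlapped Ach2, and 6 of the 7 held a single cell.

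Among the noradrenergic identities, Noradrenergic4 had the highest Ret level. It stood at 4.95 (P11 female), 7.84 (P30 female), 3.02 (P31 female), 2.61 (P33 female) and 1.39 (P38 male), with a mean of 3.96 ± 2.52 (SD, n = 5). In Noradrenergic5 the lowest library had 1.21, the median was 1.75 and the highest had 4.40, with a mean of 2.11 ± 1.15 (SD, n = 6). The highest Noradrenergic5 library was a single cell from the P34 female collection, and the others overlapped the lower Noradrenergic4 libraries.

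Noradrenergic2 and Noradrenergic3, the most numerous identities, varied least. Ret lay between 1.10 and 2.42 in Noradrenergic2, with the median at 1.77 and the mean at 1.87 ± 0.465 (SD, n = 7), and it had a count in 39 of 39 cells. In Noradrenergic3 it lay between 0.794 and 1.37, with the median at 1.10 and the mean at 1.07 ± 0.220 (SD, n = 7), and 88.3% of cells had a count (exact 95% binomial interval 80.5% to 93.8%). This was the single step in the order of the 8 identities in which the means of neighbours differed by more than the larger SD, and even there the ranges overlapped.

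Glutamatergic cells had a mean Ret level like that of Noradrenergic2 with a wider spread, and Noradrenergic1 had the lowest mean, with an SD above it. In Glutamatergic cells it stood at 1.22 (P29 male), 3.45 (P31 female) and 0.978 (P33 female), a mean of 1.88 ± 1.36 (SD, n = 3). In Noradrenergic1 it stood at 0.179 (P29 male), 0 (P30 female), 2.65 (P30 male), 1.06 (P31 female) and 0.308 (P38 male), a mean of 0.840 ± 1.09 (SD, n = 5), with a count in 7 of 10 cells. The P30 male library lay well above the other 4 in Noradrenergic1.

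Gfra2, the co-receptor that binds neurturin, separated the identities more sharply than Ret in the share of cells with a count. That share was 16 of 16 in the cholinergic cells, 14 of 18 in Noradrenergic4 and 20 of 23 in Noradrenergic5, against 19 of 39 in Noradrenergic2, 15.5% in Noradrenergic3, 2 of 10 in Noradrenergic1 and 0 of 4 in Glutamatergic cells. In Ach1 the level was 3.93 (P16 female), 3.75 (P29 male), 7.47 (P30 female), 7.90 (P30 male), 1.47 (P31 female), 0.908 (P33 female) and 1.18 (P38 male), a mean of 3.80 ± 2.91 (SD, n = 7). In Ach2 it was 0.717 (P16 female), 3.02 (P29 male), 2.54 (P30 female) and 2.76 (P38 male), a mean of 2.26 ± 1.05 (SD, n = 4). Both Ach1 libraries above 7 were also those with the most Ret.

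Noradrenergic4 and Noradrenergic5 held Gfra2 at nearly the same level. In Noradrenergic4 it was 1.18 (P11 female), 1.32 (P30 female), 1.01 (P31 female), 0.392 (P33 female) and 1.00 (P38 male), a mean of 0.979 ± 0.355 (SD, n = 5). In Noradrenergic5 it lay between 0 and 1.41, with the median at 1.05 and the mean at 0.923 ± 0.513 (SD, n = 6). The library at 0 was the single P34 female cell, the same that had the highest Ret level of its identity.

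In the other noradrenergic identities Gfra2 was lower on average. Pooled, it stood at 0.168 in Noradrenergic2 and 0.065 in Noradrenergic3, above the 0.0174 and 0.0078 that 3 counts would give. In Noradrenergic1 the pooled 0.103 was itself 3 counts. The means were 0.109 ± 0.0968 in Noradrenergic2 (SD, n = 7), 0.0796 ± 0.110 in Noradrenergic1 (SD, n = 5) and 0.0523 ± 0.0390 in Noradrenergic3 (SD, n = 7). No library of these identities exceeded 0.251, while every cholinergic library was at 0.717 or more, so these sets did not overlap. Noradrenergic4 and Noradrenergic5 overlapped the cholinergic libraries from below. Noradrenergic4 stayed above the low set, with 0.392 as its lowest library, and Noradrenergic5 reached into it through its single P34 female cell at 0. In the order of means, neighbours differed by more than the larger SD between Ach2 and Noradrenergic4, between Noradrenergic5 and Noradrenergic2, and between Noradrenergic3 and Glutamatergic cells, where Gfra2 had no count. In the Glutamatergic cells 0 counts allow a level of up to 0.248, above the Noradrenergic3 mean of 0.0523. That last step is therefore not shown to be a difference.

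Gfra3, the co-receptor that binds artemin, had a nearly opposite distribution. It had a count in 65% of Noradrenergic3 cells, 20 of 39 Noradrenergic2 cells and 3 of 4 Glutamatergic cells, against 3 of 18 in Noradrenergic4, 4 of 23 in Noradrenergic5, 3 of 10 in Noradrenergic1 and 0 of 16 cholinergic cells. A count of 0 in 16 cells allows a share of up to 18.8%, and 0 of 543664 counts allows a level of up to 0.0552 per 10000. Those limits, like the others given here, take 3 counts as the floor and cover counting error only.

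In Noradrenergic3 the Gfra3 level lay between 0.257 and 0.841, with the median at 0.459 and the mean at 0.476 ± 0.179 (SD, n = 7). The P29 male library was the highest and the other 6 lay at 0.488 or less. In Noradrenergic2 it was 0.214 (P16 female), 0.220 (P20 female), 0.0418 (P29 male), 0.197 (P30 female), 0.360 (P31 female), 0.500 (P33 female) and 0 (P38 male), a mean of 0.219 ± 0.173 (SD, n = 7). The P29 and P38 male libraries were the lowest of Noradrenergic2, while the P16 library, whose label as female is in doubt, lay among the others, and the sexes were not tested in that identity.

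Glutamatergic cells had the highest mean of Gfra3 and the widest spread. The level was 2.45 (P29 male), 1.38 (P31 female) and 0 (P33 female), a mean of 1.28 ± 1.23 (SD, n = 3). The cell at 0 is the one that held noradrenergic genes, with 130 counts of Th. In Noradrenergic1, Noradrenergic4 and Noradrenergic5 the means were 0.214 ± 0.320 (SD, n = 5), 0.138 ± 0.195 (SD, n = 5) and 0.0531 ± 0.0699 (SD, n = 6), and each of these ranges started at 0.

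Gfra4, the co-receptor that binds persephin, was sparse everywhere, with 92 counts in 73 of the 213 named cells. Its means ran from 0.0353 ± 0.0788 in Noradrenergic4 (SD, n = 5) to 0.295 ± 0.356 in Glutamatergic cells (SD, n = 3). No neighbours in that order differed by more than the larger SD. The share of cells with a count was 35.9% in Noradrenergic3, 15 of 39 in Noradrenergic2, 8 of 23 in Noradrenergic5 and 2 of 18 in Noradrenergic4.

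Gfra1, the co-receptor that binds GDNF, had 0 counts in all 298 cells. With 9966399 counts in all this allows a level of up to 0.00301 per 10000, and up to 1.01% of cells with a count. By GENCODE M21 on GRCm38 (the mm10 build named by the submitters' processing notes), Gfra1 is a protein-coding gene at chromosome 19, 58235604 to 58455909, minus strand, with the antisense gene Gm16277 within reach of the opposite strand. Ret lies at chromosome 6, 118151745 to 118197718, minus strand, Gfra2 at chromosome 14, 70890120 to 70979838, plus strand, and Gfra4 at chromosome 2, 131039632 to 131043088, minus strand. Gfra4 overlaps the miRNA gene Mir6973b on its own strand. How the counting treated overlaps is not given in the sources used here.

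**Figure D1:**
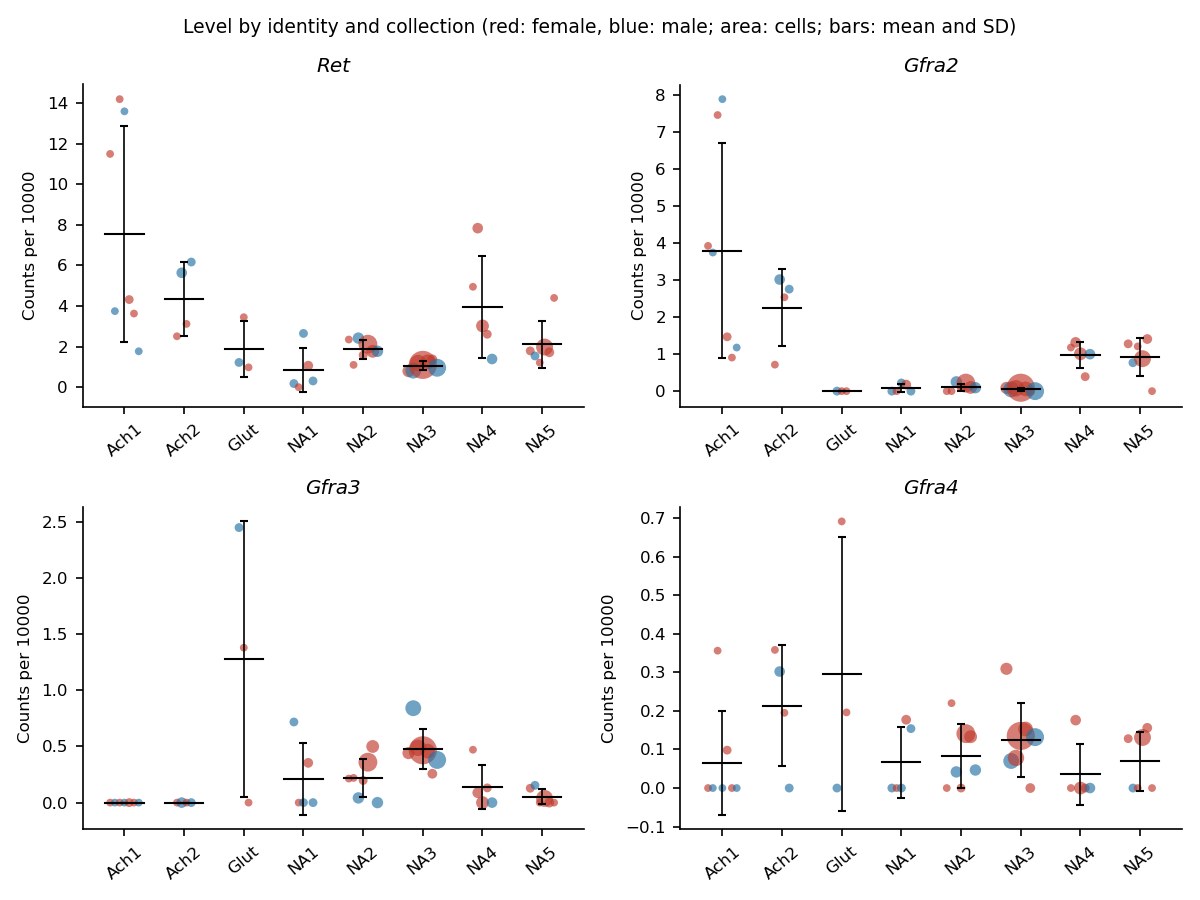
Counts per 10000 of Ret, Gfra2, Gfra3 and Gfra4 (vertical axes, each with its own scale) in each library, by identity (NA1 to NA5 stand for Noradrenergic1 to Noradrenergic5, Glut for Glutamatergic). Points are libraries, red for collections labelled female and blue for male, with an area that grows with the number of cells; bars are the mean and SD over collections. Gfra2 points of Ach1, Ach2, Noradrenergic4 and Noradrenergic5 mostly lie above those of the other identities, and Gfra3 is at 0 in each cholinergic library.

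Cholinergic and noradrenergic cells were compared to describe how the receptors differ between neurons of different transmitter. Of the 4 members with enough counts to test, Ret and Gfra2 were higher and Gfra3 was lower in the cholinergic cells, while Gfra4 was not called; in this comparison 4.57% of the 11555 genes tested were called, 2.17% higher and 2.40% lower. That is 251 genes higher and 277 lower, which became 338 and 219 with RLE size factors and 194 and 415 with DESeq2. Ret rose by a log2 fold change of 1.55 (± 0.19 SE, adjusted p = 4.9e-14 by edgeR), with a pooled level of 6.14 against 1.60. Gfra2 rose by a log2 fold change of 3.19 (± 0.26 SE, adjusted p = 1.42e-30 by edgeR), and its pooled level of 2.98 against 0.271 was 11-fold higher. Over all genes the median was -0.20 on this scale, and -0.04 when TMM scaling was replaced by RLE size factors.

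Both increases were called in all 17 alternatives tried, with log2 fold changes of 1.34 to 1.77 for Ret and 2.99 to 3.61 for Gfra2. One of these left out the 4 cells with mixed transmitter genes. Gfra3 had 0 counts in the cholinergic cells against 252 in the noradrenergic cells, a level lower by at least 6.21-fold when the cholinergic cells together are given 3 counts (edgeR adjusted p = 0.00866). That call ended with DESeq2 (adjusted p = 0.185), without the P29 male collection (edgeR adjusted p = 0.143) and with libraries of at least 2 cells (edgeR adjusted p = 0.246). Of the 252 counts, 188 lay in Noradrenergic3. Noradrenergic4 and Noradrenergic5 stood at a pooled 0.0605 and 0.0485, close to the 0.0552 that 0 counts allow in the cholinergic cells. At this depth the cholinergic cells could not be told apart from these identities in Gfra3. Gfra4 had a log2 fold change of 0.99 (± 0.70 SE, adjusted p = 0.531 by edgeR).

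Glial RNA also differed between these groups. The summed level of 11 satellite glia and Schwann cell genes had a median of 28 in the cholinergic cells (4.68 to 61.2) and of 5.21 in the noradrenergic cells (0.864 to 64.6), and 1 of 10 tested glial genes, Pmp22, rose. Within the cholinergic cells, the 8 with the lower glial level held Gfra2 at 2.63 and Ret at 5.54, and the 8 with the higher glial level held them at 3.40 and 6.89. The 20 noradrenergic cells at or above the cholinergic median of the glial level held Gfra2 at 0.289 and Ret at 1.86, against 0.269 and 1.57 in the 173 below it. The 8 cholinergic cells with the lower glial level spanned 4.68 to 25, against the noradrenergic median of 5.21, and the part of glial RNA in the differences was not tested further. Other marker lists moved too: 2 of 5 tested sensory neuron genes, Runx1 and Calca, rose in the cholinergic cells, where 6 such genes summed to 0 to 8.39 per cell (median 1.39). Of 4 neuronal genes 1, Stmn2, fell by 0.62 on the log2 scale (± 0.20 SE, adjusted p = 0.0492 by edgeR), and the part of these genes in the receptor differences was not tested.

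No member was called between Ach1 and Ach2, the pair of cholinergic identities. In that comparison edgeR called 0.138% of genes (0.0433% higher in Ach1 and 0.0952% lower), 16 genes in all, and 856 had an unadjusted p under 0.05. Ret had a log2 fold change of 0.18 (± 0.30 SE, adjusted p = 0.946 by edgeR) and Gfra2 of 0.23 (± 0.36 SE, adjusted p = 0.938 by edgeR). Gfra4 had -1.55 (± 1.11 SE, adjusted p = 0.795 by edgeR). Gfra3 had no count on either side. The sign of the Ret and Gfra2 differences turned without the P16 or the P30 female collection.

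Glutamatergic cells, whose summed level of 6 sensory neuron genes ran from 87.1 to 210 against 0 to 1.2 in the noradrenergic cells, were compared with the noradrenergic cells. Of the 4 members tested, Gfra3 was higher and none was lower, where 2.63% of genes were called, 1.62% higher and 1.01% lower. The balance of those 187 higher and 117 lower genes was not stable, with 291 and 46 under RLE size factors and 37 and 277 under DESeq2. Gfra3 rose by a log2 fold change of 2.16 (± 0.59 SE, adjusted p = 0.0162 by edgeR), with 14 counts in 4 cells and a pooled level 3.38-fold higher. The call ended without the P29 male collection, at 1.21 (edgeR adjusted p = 0.757), and without the P31 female collection, at 1.84 (edgeR adjusted p = 0.359), the collections that supplied all 14 counts. Satellite glia and Schwann cell genes had a median summed level of 26.3 in these 4 cells (14.3 to 48.7, Erbb3 at 0), 0 of 10 tested were called, and their part in the Gfra3 difference was not tested. In the noradrenergic cells Gfra3 stood at 0.390 at or above the cholinergic median of the glial level and at 0.338 below it.

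Ret did not differ detectably between Glutamatergic and noradrenergic cells, with a log2 fold change of -0.11 (± 0.42 SE, adjusted p = 0.987 by edgeR) that turned positive, at 0.36, with RLE size factors. That scaling moved the median of all genes from -0.39 to 0.02. Gfra2 had 0 counts in the 4 cells, which allows a level of up to 0.248 per 10000. That is close to the pooled 0.271 of the noradrenergic cells, so a difference from this pooled level was not detectable at this depth. The fit, which weighted the noradrenergic identities equally, did not call Gfra2 (edgeR p = 0.0238, adjusted p = 0.302). Against the cholinergic cells the same 0 counts are at least 12-fold lower, and the 14 Gfra3 counts are at least 21-fold higher than the 0 of the cholinergic cells. These bounds compare pooled counts and were not tested.

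Each noradrenergic identity was then compared with the other 4, weighted equally, to describe how the receptors divide the noradrenergic neurons. Noradrenergic4 was higher in Ret, by a log2 fold change of 1.40 (± 0.23 SE, adjusted p = 5.84e-07 by edgeR), and in Gfra2, by 2.39 (± 0.34 SE, adjusted p = 3.15e-09 by edgeR), where 1.25% of genes were called, 0.952% higher and 0.303% lower. Both calls held in all 17 alternatives. Gfra3 had a log2 fold change of -1.52 (± 0.72 SE, adjusted p = 0.457 by edgeR) and Gfra4 of -1.76 (± 0.87 SE, adjusted p = 0.485 by edgeR). Glial genes had a median summed level of 9.18 in Noradrenergic4 (2.68 to 52.6, Erbb3 at 0), and 1 of 10 tested, Pmp22, rose.

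Noradrenergic5 was higher in Gfra2 alone, by a log2 fold change of 2.37 (± 0.35 SE, adjusted p = 1.22e-08 by edgeR), where 1.41% of genes were called (0.788% higher and 0.623% lower), and this held in all 17 alternatives. Ret had a log2 fold change of 0.16 (± 0.25 SE, adjusted p = 0.978 by edgeR) and Gfra3 of -2.21 (± 0.70 SE, adjusted p = 0.0859 by edgeR). Gfra4 had 0.05 (SE 0.45). Of 5 tested fibroblast genes 3 rose as well, Col1a1, Col1a2 and Lum, with a summed level of 6 genes of 0 to 20.2 and a median of 0.203. The 11 Noradrenergic5 cells with no fibroblast count held Gfra2 at 0.839 and the 12 with one at 0.981.

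Noradrenergic3 showed the reverse pattern of co-receptors. Gfra3 rose by a log2 fold change of 2.01 (± 0.33 SE, adjusted p = 7.68e-07 by edgeR) and Gfra2 fell by 2.31 on the log2 scale (± 0.49 SE, adjusted p = 0.000535 by edgeR), where 1.74% of genes were called, 1.46% higher and 0.277% lower (169 and 32 genes, and 115 and 45 with RLE size factors). Over all genes the median was 0.16. Ret had -0.68 (± 0.21 SE, adjusted p = 0.0608 by edgeR) and Gfra4 0.82 (± 0.47 SE, adjusted p = 0.587 by edgeR). The Gfra3 call ended with DESeq2 (adjusted p = 0.0953), and the Gfra2 call without the P31 female collection, at -2.36 (edgeR adjusted p = 0.161). Ret was called lower in 4 of 17 alternatives, with RLE size factors, with libraries of at least 2 cells, without the P33 female collection and without the cells of mixed transmitter genes.

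Fibroblast genes moved with this identity too: 2 of 5 tested rose, Col3a1 and Lum, with a summed level of 0 to 98.9 and a median of 0 in Noradrenergic3. The 58 Noradrenergic3 cells with no fibroblast count held Gfra3 at 0.444 and Gfra2 at 0.0708, and the 45 with one held them at 0.544 and 0.0579.

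Noradrenergic1 was lower in Ret, which fell by 1.43 on the log2 scale (± 0.36 SE, adjusted p = 0.0102 by edgeR), where 1.39% of genes were called, 0.865% higher and 0.528% lower. The call ended with filterByExpr, a stricter filter on low counts (edgeR adjusted p = 0.243), with no collection block (edgeR adjusted p = 0.163), without the P29 male collection (edgeR adjusted p = 0.236) and without the P38 male collection (edgeR adjusted p = 0.141). Gfra2, Gfra3 and Gfra4 had log2 fold changes of -1.90 (SE 0.76), 0.91 (SE 0.66) and 0.60 (SE 0.95), with edgeR adjusted p-values of 0.294, 0.739 and 0.934. Of the macrophage list the single gene tested, Cx3cr1, rose in Noradrenergic1, where the summed level lay between 0 and 3.07 (median 0) and the other 5 genes, Csf1r, Aif1, Ptprc, C1qa and C1qb, were at 0.

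No member was called in Noradrenergic2 against the other 4, where 1.64% of genes were, 1.36% higher and 0.277% lower. Ret had a log2 fold change of 0.54 (± 0.22 SE, adjusted p = 0.32 by edgeR), and libraries of at least 2 cells brought it to 0.60 (edgeR adjusted p = 0.0315). Set directly against Noradrenergic5, Noradrenergic2 was lower in Gfra2, which fell by 2.35 on the log2 scale (± 0.41 SE, adjusted p = 4.74e-06 by edgeR), and higher in Gfra3, by a log2 fold change of 2.42 (± 0.69 SE, adjusted p = 0.0294 by edgeR), with 1.91% of genes called, 1.19% higher and 0.727% lower. Ret had 0.31 (± 0.29 SE, adjusted p = 0.892 by edgeR). Of 5 tested fibroblast genes 3 were called lower in Noradrenergic2 in the same comparison, Col1a1, Col1a2 and Lum, with a summed level of 0 to 1.06 in Noradrenergic2 and 0 to 20.2 in Noradrenergic5. The Noradrenergic5 cells without a fibroblast count held Gfra3 at 0.0579 and those with one at 0.0418. The Gfra2 call held in all 17 alternatives, whereas the Gfra3 call ended in 5 of 17, with DESeq2, filterByExpr, no collection block, and without the P31 or the P33 female collection. All of these comparisons share one fit, and the same noradrenergic libraries enter several of them.

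**Figure D2:**
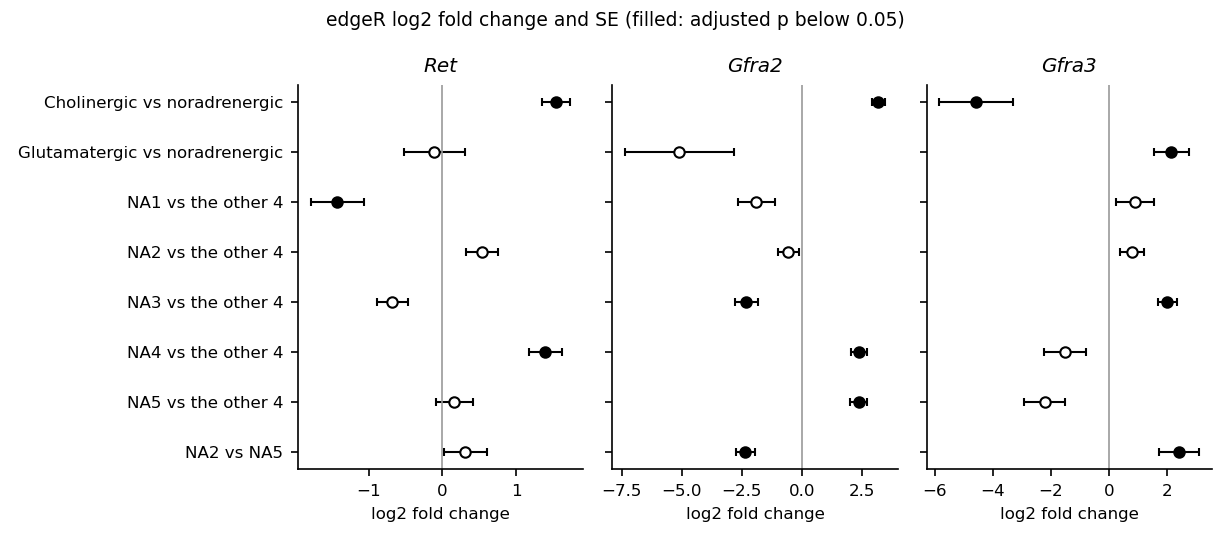
Log2 fold change with its SE (horizontal axes, a different scale in each panel) of Ret, Gfra2 and Gfra3 in 8 comparisons (rows; NA1 to NA5 stand for Noradrenergic1 to Noradrenergic5). Filled points have an edgeR adjusted p below 0.05. Gfra2 is filled to the right for cholinergic cells, Noradrenergic4 and Noradrenergic5 and to the left for Noradrenergic3 and for Noradrenergic2 against Noradrenergic5, while the Gfra2 point of Glutamatergic cells and the Gfra3 point of cholinergic cells belong to 0 counts, so their position depends on the fit and gives no size.

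In single cells, the question was which co-receptor accompanies Ret. Of the 195 named cells with a Ret count, 58 held Gfra2 without Gfra3, 64 held Gfra3 without Gfra2, 27 held both, 16 held Gfra4 alone and 30 held none of them. The mixture changed with identity. All 16 cholinergic cells held Ret with Gfra2 and no Gfra3, and 6 of them also held Gfra4.

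Noradrenergic4 and Noradrenergic5 came nearest to the cholinergic cells. Of 18 Ret-positive Noradrenergic4 cells 12 held Gfra2 without Gfra3, 1 held Gfra3 without Gfra2 and 2 held both. Of 21 Ret-positive Noradrenergic5 cells 15 held Gfra2 without Gfra3, 0 held Gfra3 without Gfra2 and 4 held both. The 4 Gfra3-positive Noradrenergic5 cells all held Gfra2, as did 20 of the 23 cells of that identity.

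Noradrenergic3 had the opposite mixture. Of its 91 Ret-positive cells 49 held Gfra3 without Gfra2 and 4 held Gfra2 without Gfra3, with 11 holding both, 10 holding Gfra4 alone and 17 holding none. Noradrenergic2 was split evenly, with 10 of 39 cells holding Gfra2 without Gfra3, 11 the reverse and 9 both. Of 7 Ret-positive Noradrenergic1 cells 3 held no co-receptor count, and of 3 Ret-positive Glutamatergic cells 2 held Gfra3 and 1 held Gfra4 alone.

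The counts themselves gave the same order. Gfra2 made up 100% of the summed Gfra2 and Gfra3 counts in the cholinergic cells, 95% in Noradrenergic5, 94.3% in Noradrenergic4, 37.7% in Noradrenergic2, 27.3% in Noradrenergic1, 11.7% in Noradrenergic3 and 0% in Glutamatergic cells. These shares are not corrected for the length of the transcripts and serve to compare identities only. Within collections, the share in Noradrenergic3 ran from 0% (P34 female and P38 male) to 16.7% (P11 female), and in Noradrenergic4 from 71.4% (P11 female) to 100% (P31 female and P38 male), so these identities did not overlap in any collection.

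Detection depends on depth, so each cell was also thinned to 7000 counts. Ret was then seen in 137 of 213 named cells, and of these 29 held Gfra2 without Gfra3, 15 the reverse, 1 both and 85 none. All 16 cholinergic cells kept Ret and 12 kept Gfra2, while the share with Gfra2 fell to 8 of 18 cells in Noradrenergic4, 10 of 23 in Noradrenergic5, 2 of 39 in Noradrenergic2 and 4.85% in Noradrenergic3. Gfra3 was left in 21.4% of Noradrenergic3 cells and 1 of 18 Noradrenergic4 cells. A cell without a co-receptor count is thus not shown to lack the co-receptor.

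**Figure D3:**
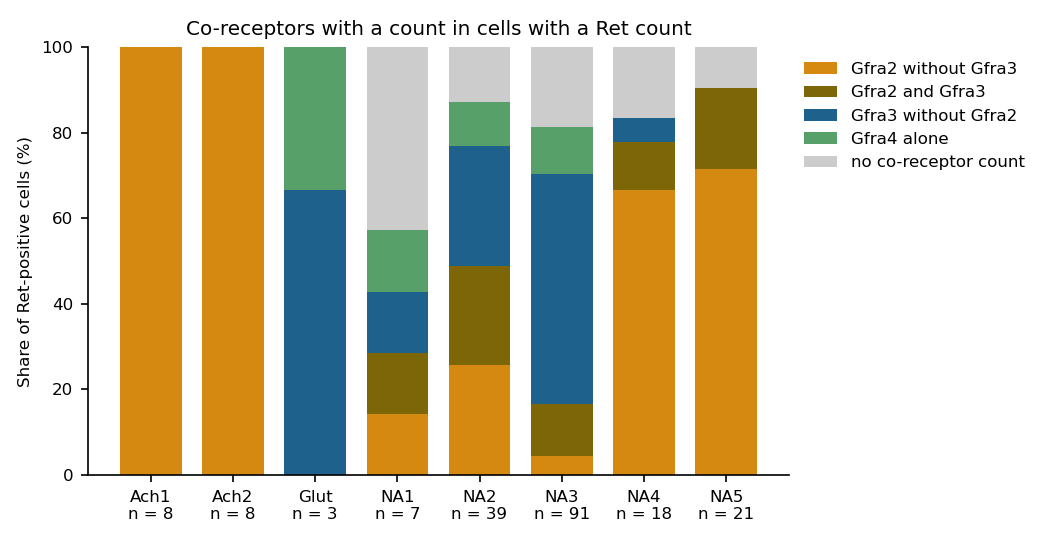
Share of Ret-positive cells (vertical axis, percent) that held each combination of co-receptor counts, by identity, with the number of Ret-positive cells below each bar (NA1 to NA5 stand for Noradrenergic1 to Noradrenergic5, Glut for Glutamatergic). Cells counted under Gfra2 or Gfra3 may also hold Gfra4. Gfra2 without Gfra3 takes 100% of Ach1 and Ach2 and 4.4% of Noradrenergic3, where Gfra3 without Gfra2 takes 53.8%.

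Seen from the co-receptors, Ret accompanied nearly every Gfra2-positive cell, 85 of 87, as it did 91 of 100 Gfra3-positive and 70 of 73 Gfra4-positive cells. The shares in cells without the gene were 110 of 126 for Gfra2, 104 of 113 for Gfra3 and 125 of 140 for Gfra4, so Ret was no more frequent in cells with Gfra3 (91%) than without it (92%). Ret-positive cells had a median total of 37514 counts and Ret-negative cells of 31076, so depth moved with these shares and its part in them was not tested. Gfra2 and Gfra3 were found together in 28 of the 213 named cells, all of them noradrenergic, and 12 of these were Noradrenergic3 and 9 Noradrenergic2 cells.

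Cells with and without Ret were compared within collections, without use of the identities. Only 3 collections held at least 3 noradrenergic cells of each kind, so the smallest p an exact two-sided sign-flip permutation test can give was 0.25. As a mean over these collections, Gfra2 stood at 0.245 in Ret-positive noradrenergic cells (118 in all) and at 0.0507 in Ret-negative ones (15 in all). Its mean log2 difference was 1.32 with a pseudocount of 0.1, higher in 3 of 3 collections (exact permutation p = 0.25, adjusted p = 0.75 over 6 tests). The Ret-negative cells of the P29 male and P38 male collections held no Gfra2 count, so the size depends on the pseudocount. Gfra3 had a mean log2 difference of 0.24 (higher in 2 of 3 collections, exact permutation p = 0.75) and Gfra4 of 0.11 (higher in 1 of 3, exact permutation p = 1).

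Noradrenergic cells were therefore also divided at the median Ret level of their collection, a split chosen after seeing the data, which 6 collections allowed. In the cells with more Ret, Gfra2 stood at 0.965 (P11 female), 0.241 (P29 male), 0.465 (P30 female), 0.475 (P31 female), 0.353 (P33 female) and 0.322 (P38 male). In the cells with less Ret it stood at 0.104, 0.0805, 0.206, 0.138, 0.1 and 0.0560 in the same order. Gfra2 was higher beside more Ret in 6 of 6 collections, by a mean of 1.34 on the log2 scale (SD 0.55), with an exact two-sided permutation p of 0.0312, the smallest 6 collections can give, and 0.0938 when adjusted over 6 tests, so it did not pass the threshold after adjustment.

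Gfra3 showed no such order, with a mean over collections of 0.380 in the cells with more Ret against 0.366 (mean log2 difference 0.08, SD 0.65, higher in 3 of 6 collections, exact permutation p = 0.719). Gfra4 had a mean over collections of 0.107 against 0.128 (mean log2 difference -0.05, SD 0.66, exact permutation p = 0.906). With all named cells the Gfra2 difference was 2.12 (SD 0.57, 6 of 6 collections, exact permutation p = 0.0312, adjusted p = 0.0938). The identities were not evenly spread over this split: 14 of the 18 Noradrenergic4 cells and 15 of 22 Noradrenergic5 cells lay above the median, against 36 of 100 Noradrenergic3 and 24 of 37 Noradrenergic2 cells. Median totals were close, at 38557 above and 36560 at or below the median.

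**Figure D4:**
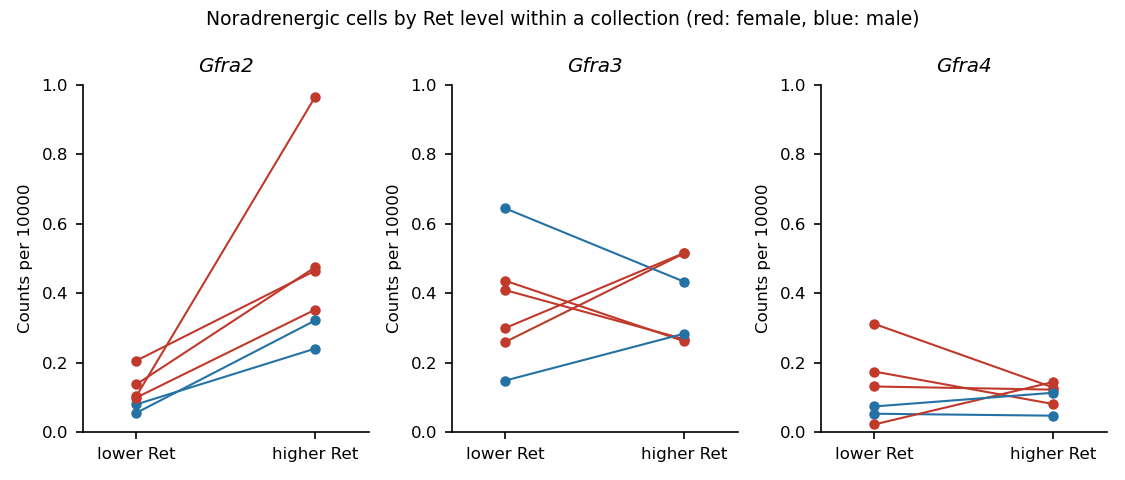
Level of Gfra2, Gfra3 and Gfra4 (vertical axes, counts per 10000) in noradrenergic cells at or below and above the median Ret level of their collection. Each line is 1 of 6 collections, red for female and blue for male. Each Gfra2 line rises, whereas 3 of the 6 Gfra3 lines rise and 3 fall.

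Within single identities the levels of Ret and Gfra2 went together in some and hardly in others. Over the 16 cholinergic cells Pearson's r was 0.85 and Spearman's coefficient 0.77, with r = 0.91 over the 8 Ach1 and 0.57 over the 8 Ach2 cells. Over the 18 Noradrenergic4 cells r was 0.62 and Spearman's coefficient 0.68. In Noradrenergic5 (23 cells) r was 0.24, in Noradrenergic3 0.19 and in Noradrenergic2 (39 cells) 0.12, values too weak in counts this sparse to be read as a relation.

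Ret and Gfra3 had an r of 0.08 over the Noradrenergic3 cells and -0.25 over the Noradrenergic2 cells. Ret and Gfra4 had an r of 0.79 over the Noradrenergic4 cells, where Gfra4 had 2 counts, so a high r can rest on few counts. It was 0.15 over the cholinergic cells, 0.20 in Noradrenergic3, 0.00 in Noradrenergic2 and -0.35 in Noradrenergic5. These are descriptions across cells that share libraries and chips, and both levels of a pair are divided by the same total. Among the cholinergic cells the highest pairs were an Ach1 cell of the P30 female collection with 80 counts of Ret and 42 of Gfra2 and an Ach1 cell of the P30 male collection with 19 and 11. The lowest were an Ach1 cell at 1.77 and 1.18 (P38 male) and an Ach2 cell at 2.51 and 0.717 (P16 female). The 3 Ach1 cells with noradrenergic genes lay in the lower part of this range, with Ret at 2.68, 5.28 and 3.63 and Gfra2 at 1.07, 1.71 and 0.908.

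**Figure D5:**
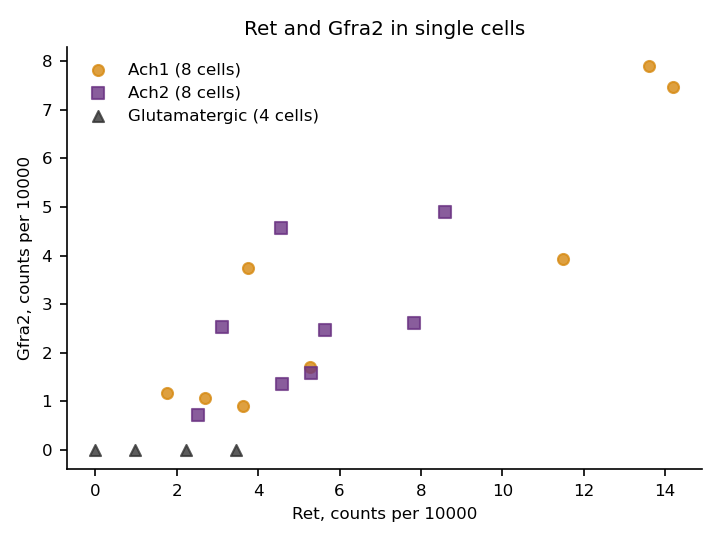
Gfra2 against Ret (both axes in counts per 10000) in each Ach1, Ach2 and Glutamatergic cell. Cholinergic cells with more Ret tended to have more Gfra2, with exceptions such as the Ach2 cell at 4.57 for both, and the Ach1 cells at 14.2 and 7.47 and at 13.6 and 7.90 stand highest, and the 4 Glutamatergic cells lie at 0 for Gfra2 with Ret between 0 and 3.45.

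Male and female Noradrenergic3 cells were compared in 2 male and 5 female collections with at least 3 such cells. No member was called by edgeR, and 0.0296% of the 10141 genes tested were (0.00986% higher and 0.0197% lower in males), 3 in all, with 290 at an unadjusted p under 0.05. Ret stood at 0.817 (P29) and 0.959 (P38) in the males. In the females it stood at 0.794 (P11), 1.19 (P30), 1.10 (P31), 1.25 (P33) and 1.37 (P34). The males lay within the female range through the P11 collection only, and below each of the other female collections. The log2 fold changes of males against females were -0.36 for Ret (SE 0.25), -1.86 for Gfra2 (SE 1.02), 0.38 for Gfra3 (SE 0.32) and -0.39 for Gfra4 (SE 0.64), each with an edgeR adjusted p of 1. Age and sex together define a collection, so effects of age could not be told apart from other differences between collections.

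Of the ligands, 2 had values here, both with few counts. Nrtn, which encodes neurturin, had 2 counts in 2 of 298 cells, and Gdf15, a more distant ligand that signals through RET with another co-receptor, had 25 counts in 18 cells, so neither could be tested. Gdnf, Artn and Pspn were not analysed here.

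Of 51 other genes of the pathway that were in a list of ligands, further receptors, adaptors, feedback regulators and target factors, 36 could be tested between identities. Between cholinergic and noradrenergic cells 4 rose and 2 fell, where 4.57% of all genes tested were called. The list median was 0.01 against -0.20 over all genes. Sorl1, a sorting receptor that binds GDNF and its co-receptors, rose by a log2 fold change of 2.15 (± 0.31 SE, adjusted p = 1.34e-09 by edgeR), from a pooled 0.216 to 1.34, and held in all 17 alternatives. Pik3r1, the regulatory subunit of phosphoinositide 3-kinase, rose by 1.46 (± 0.26 SE, adjusted p = 1.7e-06 by edgeR), and was not called with libraries of at least 2 cells.

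The other called genes of the list depended more on single collections. Dusp6, a phosphatase that limits ERK, rose by 1.73 (± 0.40 SE, adjusted p = 0.000764 by edgeR), not called with libraries of at least 2 cells or without the P29 male collection. Gab1, a docking adaptor of receptor kinases, rose by 1.87 (± 0.55 SE, adjusted p = 0.0178 by edgeR), called in 12 of 16 alternatives. Ncam1, a further receptor of GDNF, fell by 0.86 on the log2 scale (± 0.20 SE, adjusted p = 0.000941 by edgeR), not called without the P30 female collection, and Shc1, an adaptor of RET, fell by 1.08 (± 0.32 SE, adjusted p = 0.0226 by edgeR), called in 12 of 17. The pooled Shc1 level was 1.22 in Ach1 and 0.292 in Ach2 (7 counts), against 1.1 in the noradrenergic cells, so Ach2 alone was low. Ncam1 and Shc1 are named here after their values were seen.

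In Glutamatergic against noradrenergic cells 3 of 36 rose and 2 fell, where 2.63% of all genes tested were called. The list median was -0.22 against -0.39 over all genes. Dok4, a docking protein of RET, rose by 3.37 (± 0.74 SE, adjusted p = 0.000606 by edgeR) and Pik3r1 by 2.11 (± 0.43 SE, adjusted p = 0.000141 by edgeR), neither of them called without the P29 male collection. Gab1, with 6 counts in the 4 Glutamatergic cells, rose by 3.04 (± 0.89 SE, adjusted p = 0.032 by edgeR), called in 10 of 15 alternatives and turned to -3.90 by libraries of at least 2 cells. Ncam1 fell by 1.27 on the log2 scale (± 0.35 SE, adjusted p = 0.0183 by edgeR), called in 13 of 17 alternatives, and is named after its value was seen.

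Within the noradrenergic cells 2 of the 36 genes rose in Noradrenergic2, where 1.64% of all genes tested were called. Spry1, a feedback inhibitor of receptor kinases, had 34 counts in 39 Noradrenergic2 cells (0.197 per 10000), 29 in Noradrenergic3 cells (0.0754) and 3 in 10 Noradrenergic1 cells, and 0 in Noradrenergic4 and Noradrenergic5. It was called against the other 4 identities (edgeR adjusted p = 2.28e-05) and in all 16 alternatives, and its pooled level was at least 5.41-fold higher than in Noradrenergic5 when that identity is given 3 counts (edgeR adjusted p = 0.000819, not called with DESeq2 or without the P31 female collection). Etv1, an ETS transcription factor, rose by a log2 fold change of 1.42 (± 0.34 SE, adjusted p = 0.00427 by edgeR), not called with filterByExpr or without the P29 male collection.

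Pik3r1 rose in Noradrenergic5 by a log2 fold change of 1.20 (± 0.31 SE, adjusted p = 0.011 by edgeR), not called with DESeq2, with no collection block or without the P31 female collection. Between Noradrenergic2 and Noradrenergic5, Etv1 rose by 2.41 (± 0.55 SE, adjusted p = 0.00131 by edgeR) and lost its call without the P31 female collection. Pik3r1 fell by 1.44 on the log2 scale in that comparison (edgeR adjusted p = 0.00639), not called under the same 3 alternatives as in Noradrenergic5. In Noradrenergic1, Noradrenergic3, Noradrenergic4 and between Ach1 and Ach2, 0 of 36 genes of the list were called by edgeR, with 3 or 4 at an unadjusted p under 0.05 in each. Between the sexes 0 of 35 were called by edgeR, with 2 at an unadjusted p under 0.05. Of all genes tested, 1.39%, 1.74%, 1.25%, 0.138% and 0.0296% were called in these comparisons, in the same order. DESeq2 called 0 in these 5 comparisons too, but gave an adjusted p for 6 of the 36 genes between Ach1 and Ach2 and for 24 of 36 in Noradrenergic1.

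Genes with the pattern most like each member were sought over the 18 libraries of at least 3 cells, from 6 identities, among 7549 genes with at least 100 counts, by Pearson's r of log2 levels. Of the cholinergic cells only the Ach2 library of the P29 male collection (4 cells) was among these libraries, and no Glutamatergic library was. For Gfra2 the nearest genes were Edn3, which encodes the peptide endothelin 3 (r = 0.96), Man1a (0.92), Tmtc1 (0.89), Bcl2, an inhibitor of cell death (0.87), and Emb (0.85). Pooled over all cells, also those outside these libraries, Edn3 stood at 5.57 in the cholinergic and 0.470 in the noradrenergic cells. Over the 18 libraries Gfra2 itself had r = 0.75 with Ret and -0.74 with Gfra3.

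For Gfra3 they were Lrrtm4, a synaptic adhesion protein (0.91), Epha5, an ephrin receptor (0.86), Tfap2b, a transcription factor (0.81), Prep (0.80) and Fam20a (0.80). For Ret they were Dlc1 (0.85), Ptpre, a tyrosine phosphatase (0.82), Fndc3b (0.81), Zbtb44 (0.80) and Spock1 (0.80). Ret had r = -0.61 with Gfra3. These are descriptions over libraries that share collections and differ in depth, the nearest of 7549 genes, and Gfra4 had too few counts to be placed.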

How the data were processed

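Cells had been captured on Fluidigm C1 chips, whose sites were inspected by eye per the labels' protocols, and no doublet caller was run here. The authors deposited whole-number counts per gene and cell, and the submitters' processing notes name the mm10 build. The aligner, counting program, annotation and any collapsing of molecules are not given in the sources used here. Every column of the table matched a sample, and no pair of columns was identical.

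Counts were summed per identity and collection. Genes that reached 20 counts in all, in 3 or more libraries, were tested with edgeR 4.0.16 (R 4.3.3; TMM, robust quasi-likelihood), with the collection as a block, and p-values were adjusted by Benjamini-Hochberg over all genes tested. The SE is the log2 fold change over the square root of F. Deviations from identity means correlated between libraries of the same collection (r of 0.183 to 0.254 in 4 pairs over 4296 genes, against a mean of -0.0474 in 20 pairs of different collections). DESeq2 1.42.0, RLE size factors, other filters, a fit with no block and leaving out each collection were alternatives. Cell-level counts and permutation tests used Python 3.11.15, numpy 2.4.6, pandas 2.3.3 and scipy 1.17.1. The procedure was tested on simulated data.

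The members were taken by name, and the members and gene lists were chosen with earlier results of these data known. Of the pathway list, up to 4 called genes of largest change were named per comparison, and the 5 nearest genes were named for each member. The P16 cells were kept under their labels. Unclassified cells entered no comparison. Sequences of the members are not used here, and 1 called gene of the pathway list is not reported here.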

Additional observations from a re-analysis of the deposited data

Results flagged for a closer look

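Of 26 sets of libraries of 1 gene in 1 identity, 5 had a library far from the others by Dixon's criterion. Its chance rate of about 1 in 20 holds for normal values of equal precision. These are sparse counts from libraries of unequal size, and a lone library above 0 always passes, so the 5 cannot be set against that rate. Gfra3 in Noradrenergic3 stood at 0.841 per 10000 in the P29 male collection (12 cells). Gfra3 in Noradrenergic4 stood at 0.471 in the P11 female collection, which is 1 cell. Ret in Noradrenergic5 stood at 4.40 in the P34 female collection, which is also 1 cell and held no Gfra2. Gfra4 in Ach1 stood at 0.356 in the single P30 female cell, and Gfra4 in Noradrenergic4 at 0.176 in the 4 cells of the P30 female collection, where the other 4 libraries were at 0.

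The 85 unclassified cells, which no comparison used, also held the receptors, above the limit that a count of 0 allows. Ret had 219 counts in 63 of them, at 0.786 to 1.57 per 10000 over 7 collections with a median of 1.13. Gfra3 had 91 counts in 33 cells (0 to 1.34, median 0.526), Gfra2 had 24 counts in 18 cells (0 to 0.447, median 0.141), Gfra4 had 37 counts in 29 cells (0 to 0.447, median 0.164) and Gfra1 had none. Of the 63 with Ret, 20 held Gfra3 without Gfra2, 12 the reverse, 5 both, 9 Gfra4 alone and 17 none. Their median total was 22977 counts and the median summed level of 11 glial genes was 25.3.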

How the results depend on the processing

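Counts of called genes moved by more than 1.5 times as follows. With filterByExpr they were 3 between Ach1 and Ach2 (from 16), 81 in Noradrenergic2 (from 189), 81 in Noradrenergic3 (from 201), 82 in Noradrenergic5 (from 163) and 106 between Noradrenergic2 and Noradrenergic5 (from 221). Libraries of at least 2 cells gave 279 for cholinergic cells (from 528), 184 for Glutamatergic cells (from 304), 242 for Noradrenergic1 (from 161) and 333 between Noradrenergic2 and Noradrenergic5; this setting was not run between the sexes, where libraries held at least 3 cells. DESeq2 gave 93 in Noradrenergic5 and 147 between Noradrenergic2 and Noradrenergic5, and no filter beyond 1 count gave 8 between the sexes (from 3). With no replicate block 5 genes were called between Ach1 and Ach2, the calls of Ret in Noradrenergic1 and of Gfra3 between Noradrenergic2 and Noradrenergic5 ended, and no other call of a member changed. The split of higher and lower calls also moved with DESeq2 in Noradrenergic1 (100 and 61 to 55 and 82), in Noradrenergic5 (91 and 72 to 38 and 55), between Noradrenergic2 and Noradrenergic5 (137 and 84 to 107 and 40) and between Ach1 and Ach2 (5 and 11 to 0 and 14), beside the splits in the report. Leaving out 1 collection gave 5 to 17 genes between Ach1 and Ach2 (5 without P38 male), 348 to 567 for cholinergic cells (348 without P29 male), 91 to 360 for Glutamatergic cells (97 without P29 male, 91 without P31 female), 90 to 166 in Noradrenergic1 (90 without P29 male, 92 without P38 male, and also over 1.5 times fewer without P31 female), 114 to 205 in Noradrenergic2 (118 without P29 male, 114 without P31 female), 117 to 207 in Noradrenergic3 (117 without P31 female, 124 without P38 male), 87 to 152 in Noradrenergic4 (87 without P31 female, 96 without P38 male), 56 to 174 in Noradrenergic5 (56 without P31 female), 85 to 230 between Noradrenergic2 and Noradrenergic5 (85 without P31 female) and 2 to 6 between the sexes (6 without P29 male, which leaves 1 male library, assumed to vary like the others). Among values that were not called, the sign turned between Ach1 and Ach2 with libraries of at least 2 cells for Ret (-0.70) and Gfra2 (-1.30), and over the collections left out they ran from -0.36 to 0.66 and from -0.27 to 0.54. For Glutamatergic cells Ret was 0.36 with RLE size factors, 0.15 with filterByExpr, 0.07 without the cells of mixed transmitter genes and -0.53 to 0.08 with collections left out, and Gfra4 was -3.49 with libraries of at least 2 cells. With collections left out Gfra3 between the sexes ran from -0.25 to 0.86, and Gfra4 from -0.03 to 0.97 in Noradrenergic2 and from -0.49 to 0.70 in Noradrenergic5. For cells with and without Ret, Gfra3 in noradrenergic cells was -0.08 when thinned, -0.06 with a pseudocount of 0.5 and -0.52 to 1.01 with collections left out, and Gfra4 was -0.16 when thinned, -0.05 at the median split and -0.22 to 0.37. In all named cells Gfra3 was -0.19, -0.12 and, at the median split, -0.11, with -0.60 to 0.96 over collections left out, and Gfra4 was -0.08 when thinned and -0.07 to 0.37. The Gfra2 differences of 1.32 and 2.02 kept their sign in each alternative. With collections left out they ran from 1.17 to 1.58 and from 1.59 to 2.58. The median split gave 1.34 and 2.12 with the p-values in the report. The size of the first pair depends on the pseudocount, since Ret-negative cells of the P29 male and P38 male collections held no Gfra2 count. The cause of these changes was not tested, apart from fewer genes, libraries or cells entering where the setting itself removes them. Depth limits the absence of a count in single cells, and 16 libraries are single cells.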
